A study of Mus musculus with 6 samples.

Results

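The genes described here are 32 genes of glucose uptake, the glycolytic steps, pyruvate entry into mitochondria and lactate export. They were chosen by gene symbol from 24393 features with no threshold on their values. RNA-seq was done on non-differentiated KH2 mouse embryonic stem cells (mESCs), which carry the strain label C57/BL/6, in 3 control and 3 *HOXA13*-overexpressing cultures. In the latter, human *HOXA13* with a FLAG tag had been targeted into KH2 cells under doxycycline control, and correctly targeted clones had been picked and tested with doxycycline. The labels state that the sequenced cultures were not treated, whereas the methods describe induction with doxycycline, so whether these cultures received it is unclear. Both groups were grown in serum medium with LIF and sodium pyruvate on irradiated 3T3-Swiss albino mouse fibroblasts as feeder cells. The methods call the 3 lines of each group biological replicates without saying whether each is a separate clone, so the p-values below measure the spread between these cultures only.

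Glycolysis splits glucose into pyruvate. Hexokinase traps the sugar in the cell, phosphofructokinase commits it to breakdown, and pyruvate kinase makes the last ATP of the pathway. Pyruvate is then either reduced to lactate by lactate dehydrogenase and exported by monocarboxylate transporters, or oxidized in mitochondria by the pyruvate dehydrogenase complex, which pyruvate dehydrogenase kinases switch off. Pluripotent stem cells are known for a high glycolytic rate, and cells in the naive state are known to use more mitochondrial respiration than primed cells.

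Libraries held 14608681 to 21766589 counts in control and 13494135 to 20374341 in *HOXA13*-overexpressing cultures. Levels are given as CPM, library-scaled counts after TMM normalization in edgeR, and a count of 3 corresponds to 0.134 to 0.227 CPM. The human feature ENSG00000106031, which the files do not pair with a symbol, was counted 6, 0 and 0 times in the controls, and 4298, 4177 and 2881 times with *HOXA13*, whereas mouse *Hoxa13* did not pass the test (log2 fold change 0.51, adjusted p = 0.295, edgeR's quasi-likelihood test). All 12 pluripotency markers checked were detected, and 7 rose and 1 fell, beside 14.4% and 13.3% of all 13846 genes tested. These included a rise of *Nanog* (log2 fold change 0.57) and a fall of *Tdgf1* (log2 fold change -1.09). Of the 7 higher markers, 5 kept their call with DESeq2 (*Klf4* and *Esrrb* lost it), 6 with library size alone (*Sox2* lost it) and 4 without control replicate 3 or any 1 *HOXA13* library (*Sox2*, *Esrrb* and *Klf4* lost it). The 20 fibroblast markers took 0.899% to 1.43% of the counts, with no marker at 0, and none rose and 1, *Pdgfra*, fell, while 0 to 3 rose (3 without control replicate 2) and 0 to 2 fell under the alternatives. The call of *Pdgfra* was lost without control replicate 3 (adjusted p = 0.0719) and without *HOXA13* replicates 1 and 2 (0.0899 and 0.0892). Of 12 tested mesendoderm and primed-state markers, 8 fell and 1, *Gata6*, rose, beside 13.3% and 14.4% of all genes. The count of lower markers was 3 with limma-voom, which did not call *T*, *Mixl1*, *Wnt3*, *Fgf8* or *Eomes* (adjusted p = 0.111, 0.134, 0.0988, 0.0583 and 0.0573), 4 with at least 10 counts required in every library, 5 without *HOXA13* replicate 1 and 12 without control replicate 2.

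Promoter sequences are shown for 5 genes on which the results below turn: the lactate exporters *Slc16a3* and *Slc16a1* and the lactate dehydrogenase gene *Ldha*, all lower with *HOXA13*, and *Pdk1* and *Pdhb*, which control and form the pyruvate dehydrogenase complex and were higher. Each is the 250 bases before the first RefSeq start listed for the gene, on GRCm38.p6, read 5′ to 3′ along the gene. Capitals mark ACGTG or GCGTG on either strand (CACGT or CACGC when read on the other), the core letters of hypoxia response elements. The stretches are chr11:120948817-120949066 on the plus strand for *Slc16a3*, chr3:104638414-104638663 on the plus strand for *Slc16a1*, chr7:46845554-46845803 on the plus strand for *Ldha*, chr2:71872974-71873223 on the plus strand for *Pdk1* and chr14:8172993-8173242 on the minus strand for *Pdhb*.
Slc16a3: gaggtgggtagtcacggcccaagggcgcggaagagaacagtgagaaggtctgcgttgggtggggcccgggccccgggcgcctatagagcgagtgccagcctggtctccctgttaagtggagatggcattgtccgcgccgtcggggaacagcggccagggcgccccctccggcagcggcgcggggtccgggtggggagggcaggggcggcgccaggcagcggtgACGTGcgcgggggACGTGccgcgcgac
Slc16a1: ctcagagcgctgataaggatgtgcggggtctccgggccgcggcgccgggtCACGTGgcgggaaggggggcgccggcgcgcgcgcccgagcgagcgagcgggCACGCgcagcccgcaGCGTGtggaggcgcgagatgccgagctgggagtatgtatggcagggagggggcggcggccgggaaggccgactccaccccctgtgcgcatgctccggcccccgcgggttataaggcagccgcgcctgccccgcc
Ldha: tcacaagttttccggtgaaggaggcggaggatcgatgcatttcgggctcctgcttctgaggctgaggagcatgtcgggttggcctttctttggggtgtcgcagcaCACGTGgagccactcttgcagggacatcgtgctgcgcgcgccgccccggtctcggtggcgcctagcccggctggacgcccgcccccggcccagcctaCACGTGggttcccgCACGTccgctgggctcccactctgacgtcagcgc
Pdk1: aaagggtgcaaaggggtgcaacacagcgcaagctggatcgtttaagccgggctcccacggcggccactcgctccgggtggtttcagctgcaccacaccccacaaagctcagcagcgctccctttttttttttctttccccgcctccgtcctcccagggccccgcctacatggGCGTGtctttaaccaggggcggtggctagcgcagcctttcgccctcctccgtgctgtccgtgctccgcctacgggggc
Pdhb: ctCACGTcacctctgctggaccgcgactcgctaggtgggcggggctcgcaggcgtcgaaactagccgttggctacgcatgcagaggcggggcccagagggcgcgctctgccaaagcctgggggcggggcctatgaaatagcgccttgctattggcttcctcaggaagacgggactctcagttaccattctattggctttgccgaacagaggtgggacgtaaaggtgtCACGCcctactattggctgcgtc

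The core was present in all 5 of these stretches, whether the gene was lower or higher. Over the 31 genes with an entry in the RefSeq table (all but *Slc2a3*), 24 (77.4%) held the core in this window, against 56.6% of 10432 tested genes and 38.6% of all 27025 genes with an entry. It was found in 4 of 5 genes that rose, 6 of 9 that fell and 13 of 16 that did not pass the test. The E-box CACGTG, the letters bound by MYC, overlaps the core, since it contains ACGTG on both strands. It stood in 5 of 31 promoters (16.1%), against 8.49% of the tested genes, and *Ldha* held 2 copies and *Slc16a1* held 1. These matches describe letters in a window and not binding.

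Of the 32 genes, 31 passed the filter on low counts. With *HOXA13*, 6 rose and 9 fell at an adjusted p under 0.05 (edgeR's quasi-likelihood test), and 16 did not pass. The share called was thus 48.4%, beside 27.7% of all 13846 genes tested. The share that rose was 19.4% beside 14.4%, and the share that fell was 29% beside 13.3%. Much of the set is abundant, and above a mean level of 100 CPM 10 of the 14 glycolysis and lactate genes (71.4%) were called, beside 33.5% of all such genes. The median log2 fold change was -0.06 beside 0.00 (3.73e-05) for all genes, and single values ran from -3.45 for *Slc16a3* to 1.40 for *Pfkfb2*. Control and *HOXA13*-overexpressing libraries did not overlap in 20 of the 31 genes, 8 higher and 12 lower. The share over all genes was 45.7%, with 23.5% higher and 22.2% lower.

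**Figure D1:**
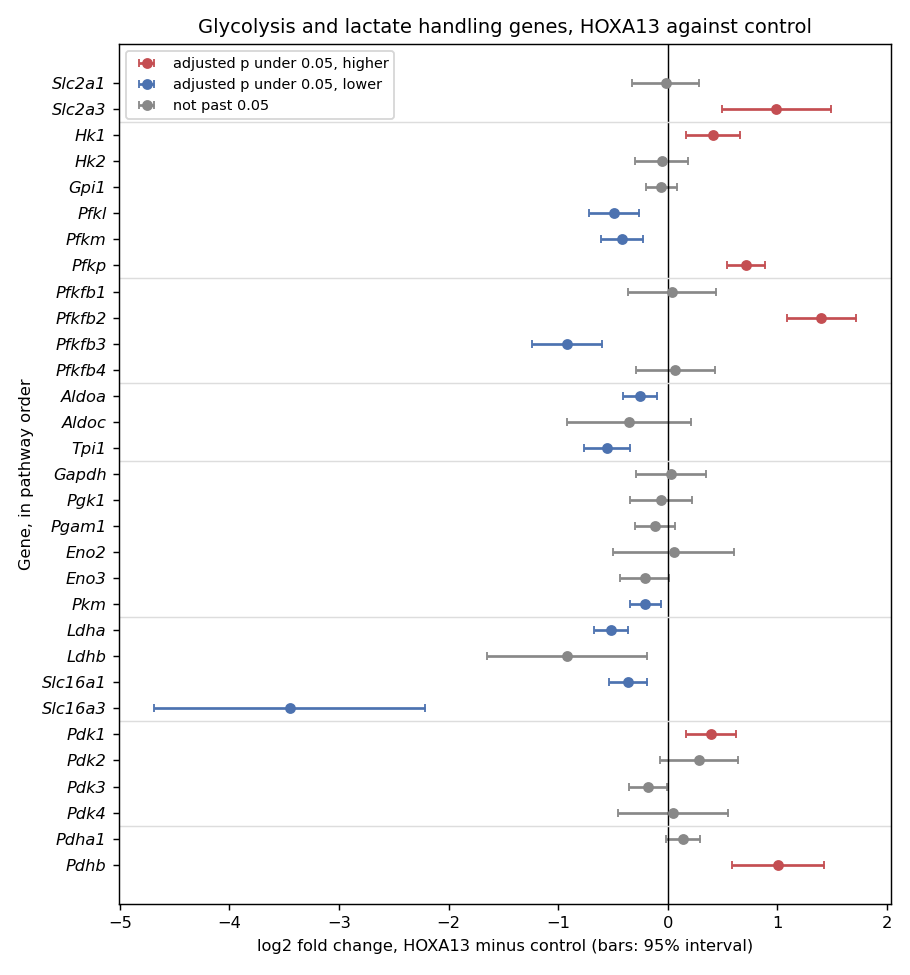
Log2 fold change of the 31 tested genes (x axis, HOXA13 minus control) in pathway order (y axis), with points for edgeR estimates from 3 against 3 libraries, bars for 95% intervals and color for the call. Called genes lie on both sides of 0 in the upper-glycolysis and PFKFB groups, and *Slc16a3* stands farthest from 0 at -3.45.

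Calls were checked in 6 fits that each left out 1 library. In these, 8 of the 15 called genes kept their call throughout: *Pfkm*, *Pfkp*, *Pfkfb2*, *Pfkfb3*, *Tpi1*, *Ldha*, *Slc16a3* and *Pdhb*. Over all genes, 3836 were called with all libraries and 2038 to 5007 in these fits. The share of all called genes that held throughout was not counted. The spread between control cultures was the wider one, since 25 of the 31 genes had a larger coefficient of variation in control, as did 71.2% of all genes tested. In 8 genes the control cultures were ordered replicate 1, 3, 2 from high to low, and in 7 genes the order was 2, 3, 1. The plot of called genes by library shows both orders. How many of all genes follow each order was not counted.

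**Figure D2:**
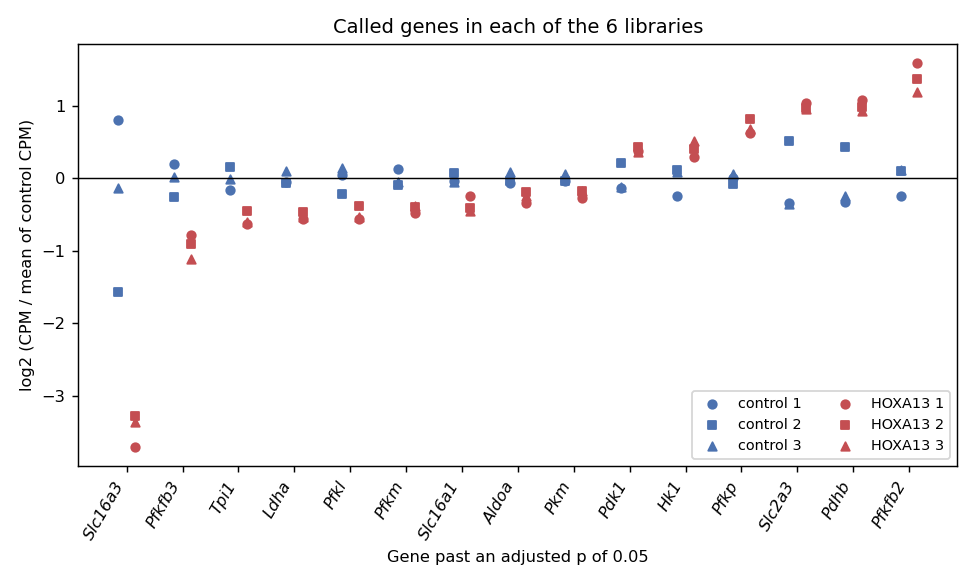
CPM of each called gene in each of the 6 libraries, as log2 of its ratio to the mean control CPM (y axis), for the 15 called genes sorted by fold change (x axis). Blue points are control and red points *HOXA13*-overexpressing libraries, marker shape gives the replicate, and control 2 sits highest of the controls for *Slc2a3* and *Pdhb* and lowest for *Slc16a3*.

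Glucose uptake was marked by a rise of one transporter and not the other. *Slc2a3* encodes GLUT3, a high-affinity glucose transporter, and lies on chromosome 6 of mm9 from 122677827 to 122751658. It was measured at 733, 1323 and 723 CPM in control replicates 1 to 3 and at 1904, 1815 and 1805 CPM in *HOXA13*-overexpressing replicates 1 to 3. All *HOXA13* libraries lay above all controls, and control 2 lay between its group and the *HOXA13* libraries. The mean rose from 926 ± 344 to 1841 ± 54.5 CPM (SD, n = 3), a log2 fold change of 0.99 (SE, the standard error, 0.22, adjusted p = 0.0115, edgeR). Without *HOXA13* replicate 1 the change was 0.97 and its adjusted p was 0.0603. *Slc2a1*, which encodes the widely expressed transporter GLUT1, was at 351, 244 and 253 CPM in control and 272, 296 and 270.0 CPM with *HOXA13*. These groups overlapped, and the interval of the log2 fold change ran from -0.33 to 0.28 (95%, adjusted p = 0.927).

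Per length, the order of the most abundant genes shifted with *Slc2a3*. This order leaves aside *Gapdh*, *Pgk1*, *Pgam1* and *Eno1*, whose levels are uncertain, as described below. In control the highest levels were those of *Pkm* (917 ± 35.9 CPM per kb of exon, SD, n = 3), *Aldoa* (359 ± 20.2) and *Ldha* (327 ± 21.8), followed by *Slc2a3* (128 ± 47.4) and *Tpi1* (123 ± 13.7), and the latter pair did not differ beyond their spread. With *HOXA13*, *Slc2a3* at 254 ± 7.52 CPM per kb stood above *Ldha* at 228 ± 7.94 and below *Aldoa* at 301 ± 15.7. The summed CPM of all 32 genes was 7781 to 8287 in control and 8033 to 8231 with *HOXA13*, and these ranges overlapped.

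Among the 9 genes of the upper steps, from hexokinase to triose phosphate isomerase, 2 rose and 4 fell (66.7% called beside 27.7% of all genes). *Hk1*, which encodes a hexokinase found in most tissues, was at 66.0, 84.7 and 83.3 CPM in control and 96.1, 103 and 112 CPM with *HOXA13*, without overlap (log2 fold change 0.41, SE 0.11, adjusted p = 0.0244). Leaving out *HOXA13* replicate 1, 2 or 3 brought its adjusted p to 0.0546, 0.0839 or 0.0992. *Hk2*, the isoform known for inducible expression, did not pass the test (interval -0.29 to 0.18, adjusted p = 0.73). The same was true of *Gpi1*, whose enzyme turns glucose-6-phosphate into fructose-6-phosphate (interval -0.20 to 0.09, adjusted p = 0.54).

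The 3 phosphofructokinase genes, whose products form the enzyme of the committed step, all changed and not in one direction. *Pfkp*, the platelet-type subunit, on chromosome 13 from 6579014 to 6648023, was at 89.8, 84.3 and 93.5 CPM in control and 137, 158 and 143 CPM with *HOXA13*. Each *HOXA13* library was well above every control, and the log2 fold change was 0.71 (SE 0.08, adjusted p = 0.000493, edgeR). *Pfkl*, the liver-type subunit and the most abundant of the 3 per length, was at 271, 225 and 289 CPM in control and fell to 178, 200.3 and 180.3 CPM. Its groups did not overlap (log2 fold change -0.49, SE 0.10, adjusted p = 0.00847), but without *HOXA13* replicate 1 the change of -0.46 had an adjusted p of 0.0531. *Pfkm*, the muscle-type subunit, fell from 54.2 ± 4.61 to 40.7 ± 1.42 CPM (SD, n = 3), a log2 fold change of -0.42 (SE 0.08, adjusted p = 0.00832), also without overlap. In every library *Pfkl* counts exceeded *Pfkp* counts, by a *Pfkp* to *Pfkl* ratio of 0.323 to 0.375 in control and 0.771 to 0.794 with *HOXA13*. *Pfkm* overlaps *Senp1* on the opposite strand, and *Pfkp* overlaps *Pitrm1*, and each of these neighbors changed in the direction opposite to its partner (log2 fold change 0.27 for *Senp1* and -0.28 for *Pitrm1*).

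The PFKFB enzymes make and break fructose-2,6-bisphosphate, the activator of phosphofructokinase. *Pfkfb2*, known from heart, was at 16.3, 20.8 and 20.9 CPM in control and 58.3, 49.9 and 44.1 CPM with *HOXA13*. The groups were far apart, and the log2 fold change of 1.40 was the largest rise of the 31 genes (SE 0.14, adjusted p = 0.00033, edgeR). It lies on chromosome 1 of mm9 from 132585620 to 132625830, and genes of chromosome 1 had a median log2 fold change of 0.38, with 56.2% of them called. When each chromosome was centered in each library, the *Pfkfb2* change was 1.03 (adjusted p = 0.00042). It also overlaps *Yod1* on the opposite strand, which rose by 1.25 on the log2 scale (adjusted p = 0.00104), and as the strand setting of the counting is not given in the sources used here, reads of the pair may not have been told apart.

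*Pfkfb3*, whose enzyme strongly favors making the activator, went the other way. It was at 30.5, 22.4 and 27.2 CPM in control and 15.5, 14.3 and 12.4 CPM with *HOXA13*. All *HOXA13* libraries were below all controls (log2 fold change -0.92, SE 0.14, adjusted p = 0.00231), and every fit without 1 library kept the call. *Pfkfb1* and *Pfkfb4*, the liver- and testis-type genes, did not pass the test (log2 fold changes 0.03 and 0.07).

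Below phosphofructokinase, the triose phosphate isomerase gene and 1 of the 2 aldolase genes fell. *Tpi1*, whose enzyme interconverts the triose phosphates, was at 242, 302 and 269 CPM in control and 176, 198 and 179 CPM with *HOXA13*. The groups did not overlap (log2 fold change -0.55, SE 0.09, adjusted p = 0.00357). *Aldoa*, the main aldolase of most tissues, fell from 987 ± 55.5 to 828 ± 43.3 CPM (SD, n = 3; log2 fold change -0.25, SE 0.07, adjusted p = 0.0265). Its adjusted p was 0.0894 without control replicate 3 and 0.101, 0.0633 and 0.0866 without *HOXA13* replicates 1, 2 and 3. *Aldoc*, the brain-type gene, was low at 4.69 to 8.12 CPM in control and did not pass the test (log2 fold change -0.35, adjusted p = 0.323).

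Of the 7 genes of the lower steps, from glyceraldehyde phosphate dehydrogenase to pyruvate kinase, 6 were tested, and 1 fell and none rose (16.7% lower beside 13.3% of all genes). *Pkm*, the pyruvate kinase gene, was the most abundant of the set per length, leaving aside the genes of uncertain level described below. It was at 2148, 2137 and 2291 CPM in control and 1819, 1936 and 1946 CPM with *HOXA13*. The groups did not overlap, but the change was small (log2 fold change -0.21, SE 0.06, adjusted p = 0.0387, edgeR). Its adjusted p was 0.119 without control replicate 3 and 0.122, 0.115 and 0.0916 without *HOXA13* replicates 1, 2 and 3. The call of *Pkm* was also lost with no filter on low counts and with the replicate number as a block. *Eno2* and *Eno3*, the neuron- and muscle-type enolases, did not pass (log2 fold changes 0.05 and -0.21).

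Most of the transcript sequence of *Gapdh*, *Pgk1*, *Pgam1* and *Eno1* recurs elsewhere in the genome, and their values are given as uncertain. *Gapdh*, usually among the most abundant transcripts of a cell, was listed at 7.13, 6.18 and 7.18 CPM in control and 6.45, 7.49 and 7.03 CPM with *HOXA13*, and ranked 10153 by mean CPM. Of its transcript's 75-base windows, 85.4% had an exact copy elsewhere in mm9, at 121 places. The corresponding shares were 91.4% for *Pgk1*, 88.9% for *Pgam1* and 65.4% for *Eno1*. *Eno1*, the widely expressed enolase, had 1 count in control replicate 3 and 0 in the other libraries, which leaves it below the floor of 3 counts, whereas the related enolase gene *Eno1b*, with 85.7% of windows repeated, was at 96.8 to 106 CPM in control and 84.2 to 96.4 CPM with *HOXA13*. None of the 3 genes *Gapdh*, *Pgk1* and *Pgam1* passed the test (log2 fold changes 0.03, -0.06 and -0.12), and neither did *Eno1b* (log2 fold change -0.19, adjusted p = 0.11). How the counting treated reads with several matches is not given in the sources used here, and the part of repeated sequence in these values was not tested. The repeated share was 22.5% for *Pkm*, 20.3% for *Pdhb*, 19.3% for *Ldhb*, 17.8% for *Gpi1*, 12.5% for *Tpi1* and 7.15% for *Ldha*, and below 2% for each of the other genes.

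**Figure D3:**
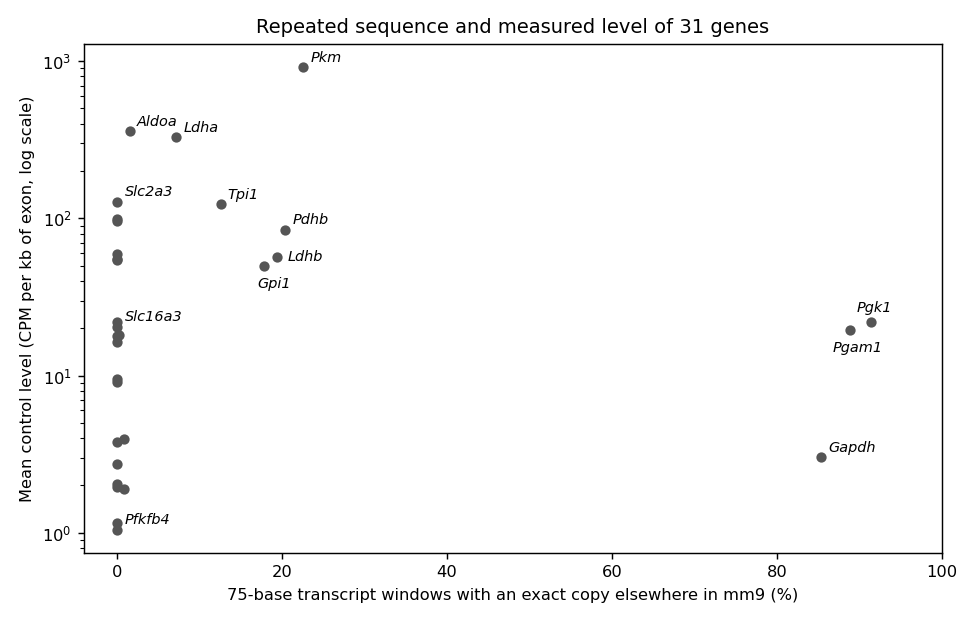
Share of 75-base transcript windows with an exact copy elsewhere in mm9 (x axis, %) against mean control level (y axis, CPM per kb of exon, log scale) for the 31 tested genes. *Gapdh*, *Pgk1* and *Pgam1*, all above 85% repeated, sit at 3.03 to 21.8 CPM per kb, while *Pkm*, at 22.5% repeated, reaches 917.

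Of the 4 lactate genes, 3 fell and none rose, beside 13.3% and 14.4% of all genes tested. The steepest fall of the set was that of *Slc16a3*, which encodes MCT4, the lactate exporter of strongly glycolytic cells, on chromosome 11 of mm9 from 120809794 to 120822182. It was at 190.1, 36.8 and 99.1 CPM in control and 8.33, 11.2 and 10.6 CPM with *HOXA13*. Relative to their mean, controls differed more than in any other tested gene of the set (coefficient of variation 70.9%). Control 1 was highest and control 2 lowest, and all controls still lay above every *HOXA13* library. The mean fell from 109 ± 77.1 to 10.0 ± 1.5 CPM (SD, n = 3), 10.8-fold, with a log2 fold change of -3.45 (SE 0.54, 95% interval -4.69 to -2.21, adjusted p = 0.00273, edgeR). Without control replicate 1 the log2 fold change was -2.78 and without control replicate 2 it was -3.87, each still past the threshold. *Csnk1d* overlaps it on the opposite strand and did not pass the test (log2 fold change -0.21, adjusted p = 0.218).

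*Slc16a1*, which encodes the widely expressed transporter MCT1, fell less. It was at 235, 254 and 232 CPM in control and 203, 181 and 176 CPM with *HOXA13*, without overlap (log2 fold change -0.36, SE 0.07, adjusted p = 0.00871). Without *HOXA13* replicate 2 its adjusted p was 0.0544. *Ldha*, which encodes the subunit favoring lactate formation, on chromosome 7 from 54096845 to 54110997, was at 941, 936 and 1051 CPM in control and 662, 707 and 673 CPM with *HOXA13*. These groups were far apart relative to their spread (log2 fold change -0.52, SE 0.07, adjusted p = 0.00122), and the call held without any 1 library. *Ldhb*, whose subunit favors the reverse reaction, was at 131, 44.6 and 89.8 CPM in control and 46.7, 47.0 and 47.5 CPM with *HOXA13*. Control 2 lay at the level of the *HOXA13* libraries, so the groups overlapped (log2 fold change -0.92, SE 0.32, adjusted p = 0.0642). Without control replicate 2 the adjusted p of *Ldhb* was 0.00017 and its log2 fold change was -1.24.

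The order of the control cultures in *Slc16a3* and *Ldhb* (replicate 1, 3, 2 from high to low) was also that of 11 of the 14 mesendoderm and primed-state markers in the files, while 2, *Lefty2* and *Gata6*, were ordered 1, 2, 3 and *Sox17* was highest in control 2. Their summed level was 864, 423 and 509 CPM in control replicates 1 to 3 and 183, 191 and 175 CPM with *HOXA13*, and *T*, the primitive streak factor, was at 181, 10.5 and 85.2 CPM in control. *Mesp1* was at 0 in control 2 and in all *HOXA13* libraries. *Sox17* was at 0 in control 3, and *Fgf8* and *Foxa2* in *HOXA13* replicate 3. The fibroblast markers summed to 8724, 12881 and 12704 CPM in control and 12174, 13919 and 14632 CPM with *HOXA13*, and 14 of these 20 markers were ordered 2, 3, 1 in control, as were 8 of the 12 pluripotency markers. The share of all genes in each of these orders was not counted, so a pattern common to whole libraries is not set apart here. The part of either marker group in the lactate genes was not tested. In these bulk samples fewer cells of a type and less RNA per cell cannot be told apart.

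**Figure D4:**
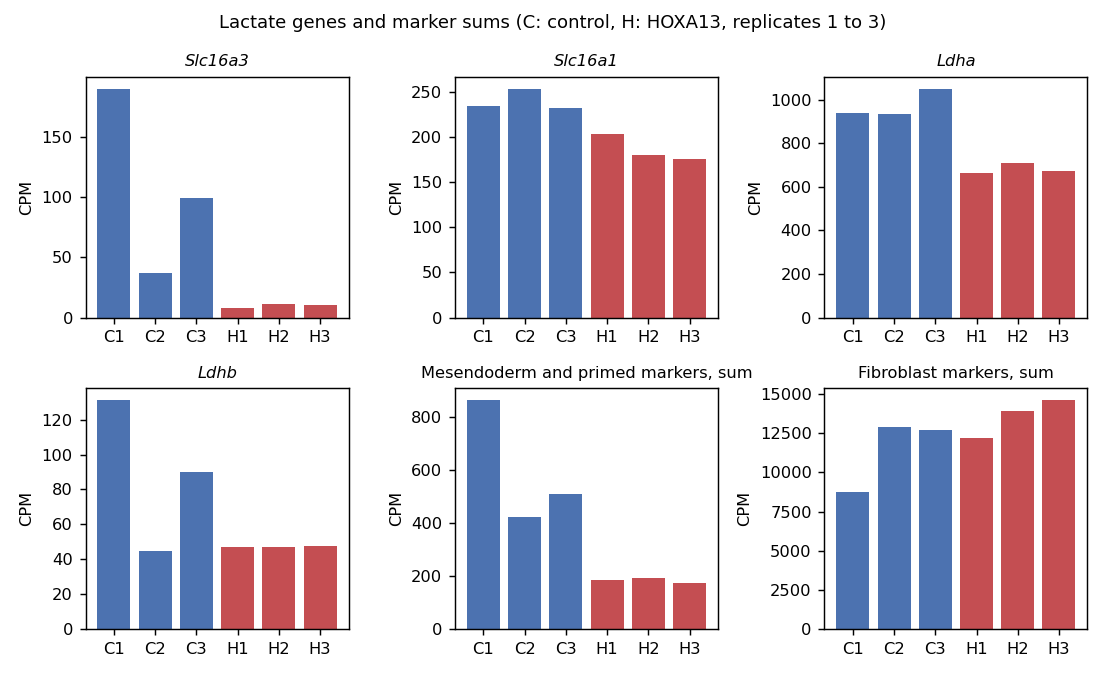
CPM (y axes, from 0) of 4 lactate genes and summed CPM of 2 marker lists in each library (x axes, C for control and H for HOXA13, replicates 1 to 3), 1 bar per library. *Slc16a3*, *Ldhb* and the mesendoderm sum are highest in C1 and lower in C2 than in C3 among controls, while *Ldha* and *Slc16a1* are similar in the 3 controls.

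At the entry of pyruvate into mitochondria, 2 of 6 genes rose and none fell, beside 14.4% and 13.3% of all genes. *Pdhb*, which encodes the beta subunit of the E1 enzyme of pyruvate dehydrogenase, was at 101, 170.3 and 107 CPM in control and 267, 249 and 240.0 CPM with *HOXA13*. The *HOXA13* libraries all lay above control 2, the highest control. The mean rose from 126 ± 38.4 to 252 ± 13.6 CPM (SD, n = 3), a log2 fold change of 1.00 (SE 0.18, adjusted p = 0.00542, edgeR). The gene lies on chromosome 14 of mm9 from 8998505 to 9005506, where the median log2 fold change of all genes was 0.26, and with each chromosome centered the change was 0.75 (adjusted p = 0.000447). *Pdha1*, the X-linked alpha subunit of the same enzyme, was at 340, 376 and 372 CPM in control and 419, 394 and 384 CPM with *HOXA13*. Its groups did not overlap either, yet the difference did not pass the test (log2 fold change 0.14, interval -0.01 to 0.29, adjusted p = 0.158).

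Among the kinases that switch this enzyme off, *Pdk1* rose. It was at 154, 198 and 157 CPM in control and 221, 230.1 and 218 CPM with *HOXA13*, without overlap (log2 fold change 0.40, SE 0.10, adjusted p = 0.0195). Its adjusted p was 0.0758 without control replicate 3 and 0.0736, 0.0828 and 0.0599 without *HOXA13* replicates 1, 2 and 3. *Pdk2*, *Pdk3* and *Pdk4*, the other kinases of the family, did not pass (log2 fold changes 0.28, -0.18 and 0.05), though *Pdk3* had an adjusted p of 0.0368 with library size alone as the scaling.

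Ratios between related genes were also compared within each library, where scaling cancels. Of 7 pairs, 4 had ratios that did not overlap between the groups. Ratios of other gene pairs were not taken, so this count has no share over all genes beside it. The log2 ratio of *Slc2a3* to *Slc2a1* rose by 1.05, from 1.67 ± 0.70 to 2.72 ± 0.10 (SD, n = 3). That of *Pfkp* to *Pfkl* rose by 1.20, from -1.54 ± 0.11 to -0.35 ± 0.02. Those of *Hk2* to *Hk1* and *Slc16a3* to *Slc16a1* differed by -0.46 and -2.78. Each of the 4 had an exact two-sided permutation p of 0.1, the smallest that 3 against 3 libraries can give, and 0.175 after adjustment over the 7 pairs, so none could pass the threshold. The ratios *Aldoc* to *Aldoa*, *Ldhb* to *Ldha* and *Pdk2* to *Pdk1* overlapped (differences -0.08, -0.26 and -0.12, exact permutation p = 0.7 for each).

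**Figure D5:**
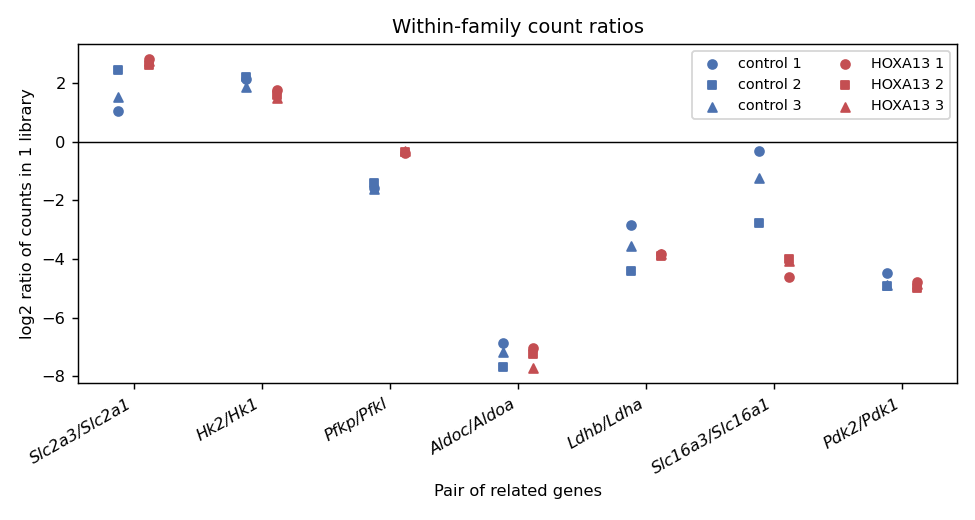
Log2 ratio of the counts of 2 related genes in 1 library (y axis) for 7 pairs (x axis), with blue points for control and red points for *HOXA13*-overexpressing libraries and marker shape for the replicate. Groups separate for 4 pairs, among them *Pfkp* to *Pfkl* with a difference of 1.20, and overlap for the other 3.

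Further genes of the pathway were called at a share near that of all genes. Of 26 tested genes that encode further isoforms, partners and pyruvate carriers, 4 rose and 2 fell (23.1% beside 27.7%, median log2 fold change -0.04). *Emb*, which encodes embigin, a membrane partner of monocarboxylate transporters, was at 317, 182 and 284 CPM in control and 103, 98.4 and 89.4 CPM with *HOXA13*. No libraries overlapped, and the log2 fold change was -1.43 (SE 0.18, adjusted p = 0.00113). *Bsg*, which encodes basigin, the usual partner of MCT1 and MCT4, changed little (log2 fold change -0.19, adjusted p = 0.0452). The call of *Bsg* was lost without control replicate 3 (adjusted p = 0.116) and without *HOXA13* replicates 1, 2 and 3 (adjusted p = 0.139, 0.12 and 0.0897). The 4 that rose were *Pdp2*, a phosphatase that switches pyruvate dehydrogenase on (log2 fold change 0.73), *Pgm1* (0.36), *Mpc2*, a subunit of the mitochondrial pyruvate carrier (0.51), and the transporter gene *Slc2a12* (1.87), which was at or below 1.06 CPM in every library. *Pgm1* lost its call without *HOXA13* replicate 2 (adjusted p = 0.0554). *Mpc2* lies on chromosome 1, and its adjusted p was 0.451 with each chromosome centered, 0.057 with library size alone and 0.0964, 0.111, 0.0916 and 0.132 without control replicate 3 and *HOXA13* replicates 1, 2 and 3.

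Of 9 tested pentose phosphate genes, 3 rose and 1 fell (44.4% beside 27.7% of all genes). The gene that fell was *G6pdx*, the entry enzyme of the pathway (log2 fold change -0.37, adjusted p = 0.00664). *Rpia* and *Rpe*, which interconvert pentose phosphates, rose by 1.12 and 1.17 on the log2 scale. *Rpe* lies on chromosome 1, and with each chromosome centered its change was 0.81 (adjusted p = 0.00197, edgeR). *Taldo1*, the transaldolase gene, rose by 0.24, and its adjusted p was between 0.0603 and 0.0853 in the fits without control replicate 3 or any 1 *HOXA13* library and 0.0512 with library size alone.

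The hypoxia-inducible factors (HIF) are known to act on many glycolysis genes. Of 24 tested HIF factors and other targets, 4 rose and 1 fell, a share of 20.8% that was below the 27.7% of all genes. *Hif1a* itself did not pass the test (log2 fold change 0.01, adjusted p = 0.929). *Ak4*, a mitochondrial adenylate kinase, was at 36.8, 18.1 and 32.7 CPM in control and 217, 192 and 198 CPM with *HOXA13*. It was the one large change of the list, with all *HOXA13* libraries far above control (log2 fold change 2.78, SE 0.22, adjusted p = 0.000119). *Kdm3a*, a histone demethylase gene, rose by 0.49, *Egln3*, a HIF prolyl hydroxylase gene, by 0.56 and *Bnip3l*, a mitophagy receptor gene, by 0.40, and *Ndrg1* fell by 0.53 on the log2 scale. The adjusted p of *Egln3* was 0.0738 without control replicate 3 and 0.0765, 0.088 and 0.076 without *HOXA13* replicates 1, 2 and 3, and those of *Bnip3l* were 0.124, 0.151, 0.108 and 0.0766. *Ndrg1* was at 0.0601 without *HOXA13* replicate 2 and 0.0598 without replicate 3. *Bnip3l* lies on chromosome 14, and its adjusted p was 0.223 with each chromosome centered and 0.058 with library size alone.

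MYC is also known as an activator of glycolysis genes. Of 11 tested genes of its family and network, not all of which encode activators, 3 fell and none rose. Thus 27.3% were lower beside 13.3% of all genes. *Myc* was at 39.3, 64.7 and 38.9 CPM in control and 21.1, 23.7 and 26.99 CPM with *HOXA13*, without overlap (log2 fold change -0.99, SE 0.20, adjusted p = 0.0091). *Mycl* and *Mlxip* fell by 1.48 and 0.56. *Mycn*, the most abundant of the 11 genes by mean CPM, did not pass the test. It was at 232 ± 8.46 CPM in control and 208 ± 11.3 CPM with *HOXA13* (SD, n = 3; log2 fold change -0.16, adjusted p = 0.0946, edgeR). Without *HOXA13* replicate 1 the adjusted p of *Myc* was 0.0608, and that of *Mycl* was 0.0538 without control replicate 3 and 0.0833, 0.0509 and 0.055 without *HOXA13* replicates 1, 2 and 3.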

How the data were processed

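RNA of 6 KH2 mESC cultures was sequenced, and groups and replicate numbers come from the sample labels. The authors made strand-specific poly(A) libraries, mapped reads to mm9 and deposited counts per gene without normalization. Per the labels' processing notes, the tools were bcl2fastq 2.17, TopHat2 2.0.14 and HTSeq 0.6.1p1. The annotation, counting mode and strand setting are not given in the sources used here.

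Counts were tested with edgeR 4.0.16 in R 4.3.3: filterByExpr (minimum count 10, minimum total 15), TMM factors, glmQLFit and glmQLFTest without covariates, and Benjamini-Hochberg adjustment over all 13846 genes kept, with a threshold of 0.05. Log2 fold changes carry a prior count of 0.125, and their intervals cover 95%. The code was first tested on simulated data. Alternatives were RLE factors, library size alone, no filter, at least 10 counts in every library, a replicate block, centering of each chromosome, DESeq2 1.42.0, limma-voom (limma 3.58.1) and each library left out.

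All 32 genes are accounted for, with values per library for those called with the largest changes in each role, and the genes and lists were chosen with earlier results of these data known. Symbols were placed on GENCODE M1 (NCBIM37, which is mm9), matching 22179 of 24393 features. Exon lengths come from it and may not be those used in the counting. Promoters come from a RefSeq table on GRCm38.p6, with the first entry listed per gene. Family ratios use a pseudocount of 0.5 counts. Counting error and the floor of 3 counts do not cover variation between cultures.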

Additional observations from a re-analysis of the deposited data

How the results depend on the processing

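The same 15 genes of the set were called with RLE factors, at least 10 counts in every library, each chromosome centered, DESeq2 and limma-voom. Library size alone, under which the median of all genes was -0.07, added *Pdk3*, and no filter lost *Pkm* and added *Ldhb*. No called gene changed direction under any alternative run. In the fits without 1 library, 3 to 6 genes of the set were higher and 6 to 10 lower, while 14.5% to 35.5% of all genes were called. Without *HOXA13* replicate 1 the set had 9 calls, having lost *Aldoa*, *Hk1*, *Pdk1*, *Pfkl*, *Pkm* and *Slc2a3*. The median log2 fold change of the set, -0.06, was -0.13 with library size alone and between -0.14 and -0.044 in the fits without 1 library. The cause was not tested.

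Among the other glycolysis and pyruvate genes, the counts of 4 higher and 2 lower genes were 2 to 5 and 1 to 2 in the fits without 1 library, and 1 was lower with no filter and 1 with the replicate block. Among HIF factors and targets, the counts of 4 higher and 1 lower were 2 to 7 and 0 to 2, and 3 were lower with library size alone. With the replicate number as a block, 14 genes of the set were called, without *Pkm* (adjusted p = 0.0609), *Bsg*, *Mpc2* and *Bnip3l* lost their calls, and 3172 of all genes were called in place of 3836. Deviations of same-numbered libraries correlated at -0.015, -0.045 and 0.018, and those of libraries with different numbers at -0.027 to 0.048. No pairing by number was seen, but correlations near 0 cannot exclude a shared preparation.

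Counts of libraries within a group differed by a chi-square per degree of freedom of 1.9 (*HOXA13* replicates 2 and 3) to 34.2 (control replicates 1 and 2), where counting noise alone gives about 1. This does not tell separate cultures from separate preparations of 1 RNA. *Eno1* had too few counts to set a level, and the levels of *Gapdh*, *Pgk1* and *Pgam1* are uncertain. The marker list counts under these alternatives were added after seeing the data.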

Other observations

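*Fbp2*, which encodes the muscle-type fructose-1,6-bisphosphatase of gluconeogenesis, was counted 2, 7 and 4 times in control libraries and 230, 166 and 136 times with *HOXA13*. No libraries overlapped, and the mean rose from 0.26 ± 0.20 to 10.4 ± 1.27 CPM (SD, n = 3; log2 fold change 5.44, SE 0.37, adjusted p = 5.64e-05, edgeR). Without control replicate 1 the log2 fold change of *Fbp2* was 4.99 and without control replicate 2 it was 6.11. The enzyme runs opposite to phosphofructokinase. Of the 7 gluconeogenesis genes only 3 could be tested, and besides *Fbp2* the mitochondrial *Pck2* rose (log2 fold change 0.44, adjusted p = 0.0298), beside 14.4% of all genes higher. *Pck2* lies on chromosome 14, and its adjusted p was 0.162 with each chromosome centered and 0.0965, 0.0716, 0.122 and 0.0854 without control replicate 3 and *HOXA13* replicates 1, 2 and 3.

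The neighborhood of *Slc2a3* on chromosome 6 was looked at after the values had been seen. *Nanog*, the pluripotency factor 13176 bases away, rose by 0.57 on the log2 scale, and *Dppa3*, a germ cell and pluripotency gene 97537 bases away, by 1.17. Other genes within 150 kb (*Gdf3*, *Apobec1*, *Foxj2*, *Necap1* and *C3ar1*) did not pass the test, and *Clec4a1* rose while at or under 1 CPM in every library.

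The testis-type aldolase genes were also looked at after the values had been seen, since they resemble *Aldoa*. *Aldoart1* fell from 38.5 ± 3.03 to 29.4 ± 1.86 CPM (SD, n = 3; log2 fold change -0.39, adjusted p = 0.0157, edgeR), while *Aldoart2* did not pass (log2 fold change -0.26, adjusted p = 0.0612). *Map3k15*, which overlaps *Pdha1* on the opposite strand, fell from 26.7 ± 12.4 to 10.3 ± 0.70 CPM (log2 fold change -1.38, adjusted p = 0.0141), whereas *Pdha1* did not pass the test.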
